A study of Mus musculus with 2 samples.

Results

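The vascular endothelial growth factor (VEGF) system was described through 10 genes chosen by name, with earlier results of these data known. The ligands were Vegfa, Vegfb, Vegfc, Vegfd (Figf in older annotation) and Pgf. The receptors were the receptor tyrosine kinases Flt1, Kdr and Flt4 and the co-receptors Nrp1 and Nrp2. All 10 were found among the 43346 genes of the deposited tables, with 35 of 103639 transcripts. The material was whole lung of 1 untreated female C57BL/6J mouse, adult at 10 weeks, from which 2 polyA-selected RNA-seq libraries were made. The libraries are technical replicates of that 1 biological replicate, and by the labels number 2 was made after number 1. There is 1 group and no contrast of conditions, so each SD below is over n = 2 libraries of 1 animal and p-values are not given.

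The libraries held 16104442 and 17110882 expected counts, of which the 10 genes took 29411 and 24053. They stand apart from each other: among 14139 genes with a mean of at least 1 TPM (a level corrected for transcript length and library depth), 39.3% were higher and 28.2% lower in replicate 2 by over 2-fold. For that reason every result below is given in each library. Lung markers were present in both libraries, with summed levels of 2444 and 4831 TPM for 6 alveolar type 1 genes (3 higher in replicate 2, 2 lower, 1 within 2-fold). For alveolar type 2 cells the sum of 5 genes was 2846 and 46976 TPM (3 higher, 1 lower, 1 within), most of the latter being Sftpc at 287 and 39612 TPM, while Lamp3 was at 687 and 191. These gaps are between 2 libraries of the same mouse lung, and their cause was not tested. In whole tissue, a level also does not tell the number of cells of a type from the RNA per cell.

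As background, VEGF-A made by epithelial and other cells binds Flt1 (VEGFR1) and Kdr (VEGFR2) on blood endothelium, and Kdr carries most of the growth and permeability signal. Flt1 binds VEGF-A more tightly but signals weakly, and its secreted form holds ligand away from Kdr. VEGF-B and placental growth factor (Pgf) bind Flt1, VEGF-C and VEGF-D bind Flt4 (VEGFR3) on lymphatic endothelium, and the neuropilins bind both VEGF forms and class 3 semaphorins. In the lung, alveolar epithelium is a known source of VEGF-A, and the dense alveolar capillary bed carries Kdr.

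The Vegfa forms differ in 2 cassettes near the end of the coding sequence, which set how strongly the protein is held by heparan sulfate. They are shown because the shares of forms with and without them differed between the libraries. All sequences are GENCODE M21 transcript sequence on GRCm38, written 5′ to 3′ in the gene's direction. In the 3 Vegfa sequences, capitals mark codons for lysine or arginine. Exon 6 (72 bases, chr17:46022277-46022348, minus strand) has such codons at 12 of its 23 whole codons. Exon 7 (132 bases, chr17:46020991-46021122, minus strand) has 9 of 43, and the coding end shared by the 4 forms (19 bases, chr17:46018861-46018879) has 3 of 6.
Vegfa exon 6: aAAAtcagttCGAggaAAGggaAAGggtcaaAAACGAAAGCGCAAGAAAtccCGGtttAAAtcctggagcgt
Vegfa exon 7: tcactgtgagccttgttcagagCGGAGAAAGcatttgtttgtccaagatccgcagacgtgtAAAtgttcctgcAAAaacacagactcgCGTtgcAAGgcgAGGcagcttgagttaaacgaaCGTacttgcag
Vegfa exon 8, coding bases: atgtgacAAGccaAGGCGG

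The secreted and membrane-bound forms of Flt1 part after the same exon on chromosome 5, minus strand. The next lines show the 30 bases they share in lower case, then in capitals 92 bases that each does not share with the other. In the soluble form the reading frame runs on into what is intron sequence for the full-length form (chr5:147639133-147639224). In the full-length form it jumps to the next exon (chr5:147634432-147634523).
Flt1 soluble form: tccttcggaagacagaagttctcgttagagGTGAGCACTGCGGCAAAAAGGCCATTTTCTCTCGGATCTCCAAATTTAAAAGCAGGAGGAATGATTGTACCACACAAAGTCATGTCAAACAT
Flt1 full-length form: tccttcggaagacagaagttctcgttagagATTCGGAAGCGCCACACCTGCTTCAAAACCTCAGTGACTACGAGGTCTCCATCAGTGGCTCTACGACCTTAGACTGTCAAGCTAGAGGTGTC

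Nrp2 ends in different cytoplasmic tails, and the last 60 coding bases of each are shown with the last 9 in capitals. The Nrp2a tail (chr1:62815575-62815634, plus strand) ends in the codons for Ser-Glu-Ala, the motif that binds the scaffold protein Gipc1, and the Nrp2b tail (chr1:62795927-62795986) does not.
Nrp2a last coding bases: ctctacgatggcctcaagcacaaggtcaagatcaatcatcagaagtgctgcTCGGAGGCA
Nrp2b last coding bases: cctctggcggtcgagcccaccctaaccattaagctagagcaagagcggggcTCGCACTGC

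Vegfa was the most abundant of the 10 genes in both libraries, followed in both by Nrp1, Kdr and Flt1. Over both libraries the mean levels were 243 ± 29.1 TPM for Vegfa, 128 ± 104 for Nrp1, 73.7 ± 31.9 for Kdr and 34.4 ± 10.4 for Flt1 (SD, n = 2). The other 6 genes had lower means, of 20.8 ± 1.74 for Vegfd, 14.4 ± 12.3 for Vegfb, 11.3 ± 3.27 for Nrp2, 10.6 ± 4.26 for Vegfc, 4.20 ± 3.54 for Flt4 and 2.73 ± 2.87 for Pgf. Of neighbours in this order, the values of Vegfa and Nrp1, of Kdr and Flt1, of Flt1 and Vegfd, and of Vegfc and Flt4 did not overlap between libraries. Nrp1 and Kdr overlapped, as did each neighbouring pair from Vegfd down to Vegfc, and Flt4 and Pgf.

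**Figure D1:**
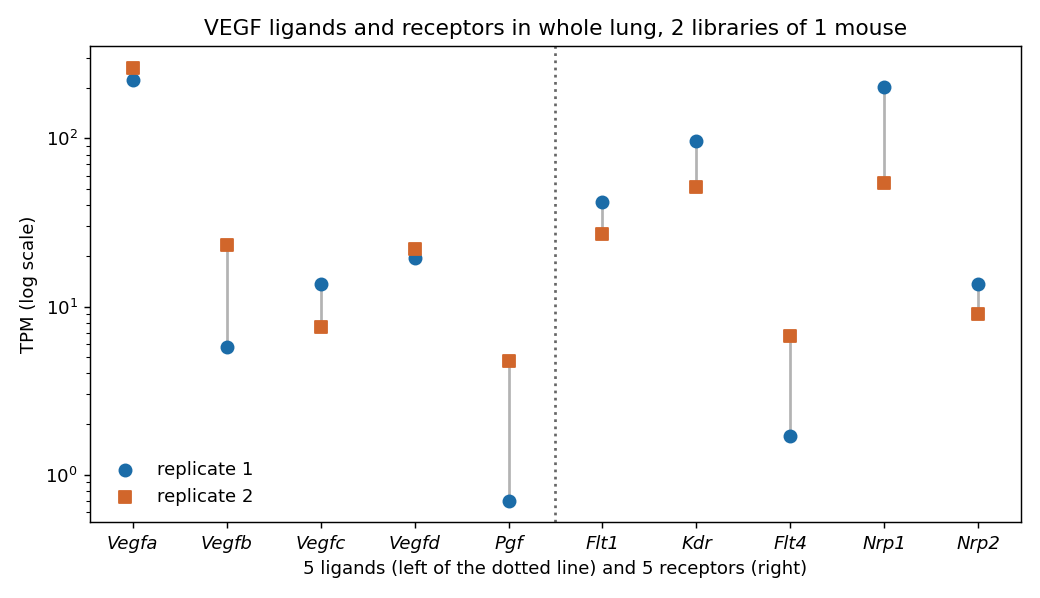
Level of each gene in TPM on a log axis, with circles for replicate 1 and squares for replicate 2 of the same mouse lung and a grey line joining them. Vegfa lies at 223 and 264 TPM, while Nrp1 spans 202 to 54.6 and Pgf 0.70 to 4.76.

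Among the ligands, Vegfa (chromosome 17, 46016993 to 46032369, minus strand) was listed at 223 and 264 TPM in replicates 1 and 2, from 5465 and 8813 expected counts. It lay above 96.9% and 97.9% of the genes detected in each library. After scaling the libraries by the trimmed mean of M-values (TMM), its counts were 1.27-fold higher in replicate 2, with an exact 95% interval of 1.22 to 1.31. This and the following intervals cover counting error only. Vegfa made up 84.9% and 82.1% of the summed TPM of the 5 ligands, which was 262 and 321.

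Vegfb (chromosome 19, 6982473 to 6987651, minus strand), the Flt1 ligand linked to heart and fat metabolism, stood at 5.75 and 23.1 TPM from 63 and 376 counts. Its scaled counts were 4.68-fold higher in replicate 2 (3.58 to 6.22). The other Flt1-specific ligand, Pgf (chromosome 12, 85166635 to 85177790, minus strand), was the least abundant in both libraries, at 0.70 and 4.76 TPM. It rested on 11 and 105 counts, was 7.49-fold higher in replicate 2 (4.02 to 15.5), and passed the mean of 1 TPM only through replicate 2. Together the Flt1-specific ligands held 2.19% and 7.18% (Vegfb) and 0.267% and 1.48% (Pgf) of ligand TPM.

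The lymphangiogenic ligands both lay far below Vegfa. Vegfd (chromosome X, 164373378 to 164402650, plus strand), known to be abundant in lung, was listed at 19.5 and 22.0 TPM from 408 and 647 counts, 1.24-fold higher in replicate 2 (1.10 to 1.41). Vegfc (chromosome 8, 54077606 to 54187096, plus strand), the main driver of lymphatic growth, was at 13.6 and 7.58 TPM from 259 and 203 counts, 1.63-fold lower in replicate 2 (1.35 to 1.96). Vegfd exceeded Vegfc in both libraries, by 1.43-fold and 2.90-fold in TPM.

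Of the receptor tyrosine kinases, Kdr (chromosome 5, 75932827 to 75978458, minus strand) was highest, at 96.2 and 51.2 TPM from 6179 and 4636 counts. Its scaled counts were 1.70-fold lower in replicate 2 (1.63 to 1.76). Flt1 (chromosome 5, 147561604 to 147726011, minus strand), all forms summed, was at 41.8 and 27.1 TPM from 3014 and 2810 counts, 1.37-fold lower in replicate 2 (1.30 to 1.44). The ratio of Flt1 to Kdr was thus close in both libraries, 0.434 and 0.529. Flt4 (chromosome 11, 49609263 to 49652739, plus strand), the receptor of lymphatic endothelium, went the other way, from 1.69 to 6.70 TPM on 115 and 640 counts, 4.37-fold higher in replicate 2 (3.58 to 5.37). Kdr took 68.9% and 60.2% of the TPM of these 3 receptors, Flt1 29.9% and 31.9%, and Flt4 1.21% and 7.88%.

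Nrp1 (chromosome 8, 128358604 to 128503363, plus strand), which pairs with Kdr and strengthens VEGF-A binding, had the widest gap of the abundant genes. It was listed at 202 and 54.6 TPM, from 12941 and 4935 counts, and was 3.34-fold lower in replicate 2 (3.23 to 3.45). Its level was thus 2.10 times that of Kdr in replicate 1 and 1.07 times in replicate 2. Nrp2 (chromosome 1, 62703285 to 62818695, plus strand), the neuropilin of veins and lymphatics, was at 13.6 and 9.0 TPM from 956 and 888 counts, 1.37-fold lower in replicate 2 (1.25 to 1.5).

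Summed over the group, receptors outweighed ligands in replicate 1 and ligands outweighed receptors in replicate 2. The 5 receptors summed to 356 and 149 TPM, and the ratio of ligand to receptor TPM was 0.738 and 2.16. Neuropilins made most of this gap, with 216 and 63.6 TPM against 140 and 85.0 TPM for the receptor tyrosine kinases.

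Of the 10 genes, 3 were over 2-fold higher in replicate 2 (Vegfb, Pgf and Flt4), against 39.3% of all genes tested. Of these 3, Pgf, at 0.70 TPM in replicate 1, passed the mean of 1 TPM only through replicate 2. Only Nrp1 was over 2-fold lower, against 28.2%, and 6 of 10 were within 2-fold. The median log2 ratio was -0.07 over the 10 genes and 0.19 over all 14139 genes tested. Across the 10 genes, log2 TPM in the libraries had a Pearson correlation of 0.866 and a Spearman correlation of 0.927, a description of genes that share the same 2 libraries.

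The ratio between the libraries moved with base composition in all genes. GC content was taken from each gene's reference transcripts, weighted by their TPM. Over 14097 genes its Spearman correlation with the log2 ratio was 0.878, and over the 10 VEGF genes 0.636 (Pearson 0.755). The 3 genes higher in replicate 2 were the richest in GC, with 62.2% in Vegfb, 56.5% in Flt4 and 55.0% in Pgf, and Vegfc and Vegfd had the lowest content, 44.9% and 46%. At the GC content of Pgf the trend over all genes was 2.82 on the log2 scale, and Pgf itself was at 2.85. Vegfb was at 2.22 where the trend was 6.61, and Flt4 at 2.12 where it was 3.73, so both differed less between libraries than genes of like composition. Nrp1 was at -1.74 where the trend at its 50.0% GC was 0.38. With this trend subtracted, 1 gene was over 2-fold higher (Vegfd, 1.09) and 4 were lower (Vegfb, Nrp1, Flt4 and Vegfa), against 17.7% and 16.4% of all genes under the same subtraction. The reference transcripts of Nrp1 and Vegfc and 1 of Vegfa have another length than the deposited ones. With the mean GC of annotated transcripts instead, Nrp1 differed from the trend by -0.78, within 2-fold, and 1 VEGF gene was higher (Vegfd) and 3 were lower (Vegfa, Vegfb and Vegfc), against 22.6% and 20.5% of all genes. The part of GC content in these differences was not tested.

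**Figure D2:**
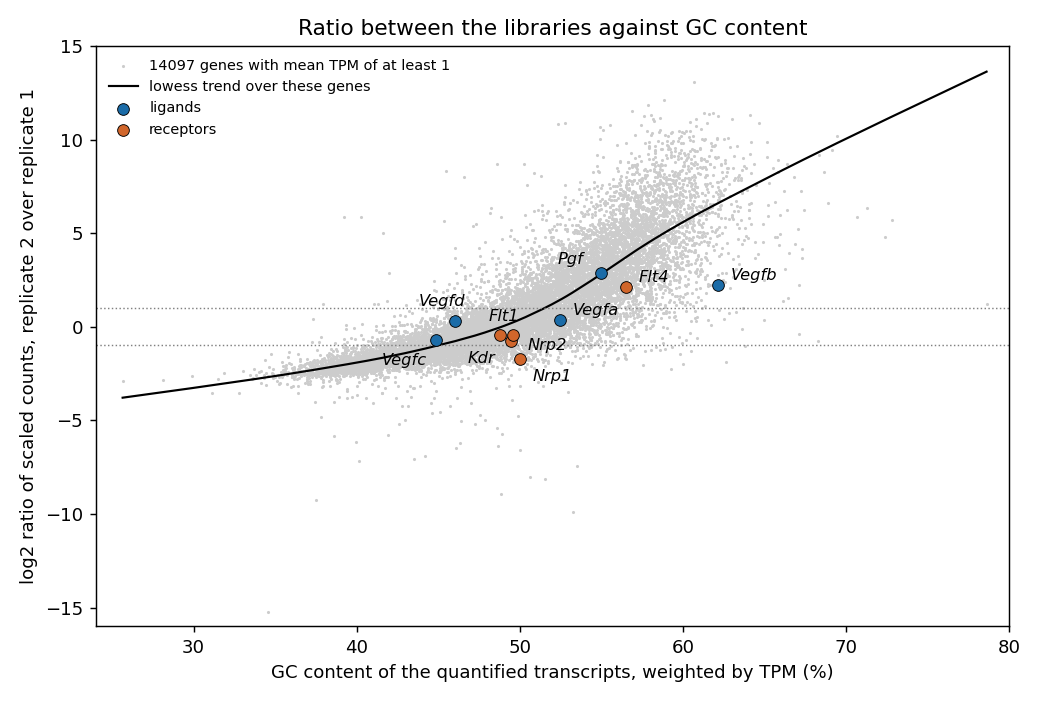
Log2 ratio of scaled counts (replicate 2 over replicate 1) against GC content in percent for 14097 genes (grey), with their lowess trend (black) and the ligands (blue) and receptors (orange). Dotted lines mark 2-fold; Pgf lies on the trend at 2.85, Vegfb and Flt4 lie below it, and Nrp1 is the only VEGF gene under the lower dotted line.

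Within Vegfa, the form of highest level was not the same in both libraries. VEGF120, which lacks exons 6 and 7 and diffuses freely, held 65.7% of Vegfa TPM in replicate 1 and 27.0% in replicate 2. VEGF164, which carries exon 7 and binds heparan sulfate and neuropilins, held 9.32% and 32.5%. The ratio of VEGF120 to VEGF164 was 7.05 in replicate 1 and 0.832 in replicate 2. VEGF188, with both exons and held most firmly by the matrix, was at 0.39 and 32.6 TPM, or 0.175% and 12.4%. VEGF144, with exon 6 but not 7, held 9.02% in replicate 1, on 75.2 expected counts for a transcript of 513 bases. It was listed at 0 in replicate 2.

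Counted by cassette, transcripts with exon 7 held 9.50% of Vegfa TPM in replicate 1 and 44.8% in replicate 2, while those with exon 6 held 9.20% and 12.4%. The exon 6 share was nearly all VEGF144 in replicate 1 and all VEGF188 in replicate 2, so its 2 values are of different forms. A further 15.8% and 28.1% lay in 5 transcripts of 463 to 874 bases with a retained intron and no annotated reading frame. They drew 182 and 563 expected counts, and short transcripts weigh more in TPM than in counts. Of the 5, Vegfa-206 took 15.4% and 15.7% of Vegfa TPM, so its share was nearly the same in both.

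Reads shared by these transcripts were divided by estimate. VEGF120 in replicate 1 was the sum of Vegfa-201 at 113 TPM and Vegfa-211 at 33.4 TPM. In replicate 2 Vegfa-201 was at 71.4 TPM and Vegfa-211 was listed at 0. The posterior SD of the count in replicate 1, deposited by the authors, was 86.2 for Vegfa-201 (3267 counts), 163 for Vegfa-211 (1173 counts) and 151 for Vegfa-202, the VEGF164 transcript (760 counts). The gap in VEGF188 was wider than its uncertainty of assignment: the posterior mean of Vegfa-207 was 0.54 TPM (deposited interval 0.070 to 1.15) in replicate 1 and 30.4 (26.8 to 34.2) in replicate 2. The level of that deposited credibility interval is not given in the sources used here.

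The annotated transcripts of these forms also differ outside the cassettes. The first coding exon has 600 coding bases in Vegfa-202 and Vegfa-207 and 66 in Vegfa-201 and Vegfa-203. Vegfa-202 has 554 bases at its 5′ end that Vegfa-201 lacks, and those bases are 57.8% GC. As whole transcripts the 2 are close, at 50.9% GC for Vegfa-202 and 49.6% for Vegfa-201. Vegfa-207, the VEGF188 transcript, is 58.6% GC. Its share and that of Vegfa-202 were higher in the library where GC-rich genes were higher. Vegfa-211, the second VEGF120 transcript, was at 33.4 TPM in replicate 1 and 0 in replicate 2. Its reference sequence is 63.7% GC over 975 bases, against 3324 deposited, so the GC content of the quantified transcript is not known. The part of GC content in the shares was not tested. Exons 6 and 7 themselves are 44.4% and 48.5% GC.

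**Figure D3:**
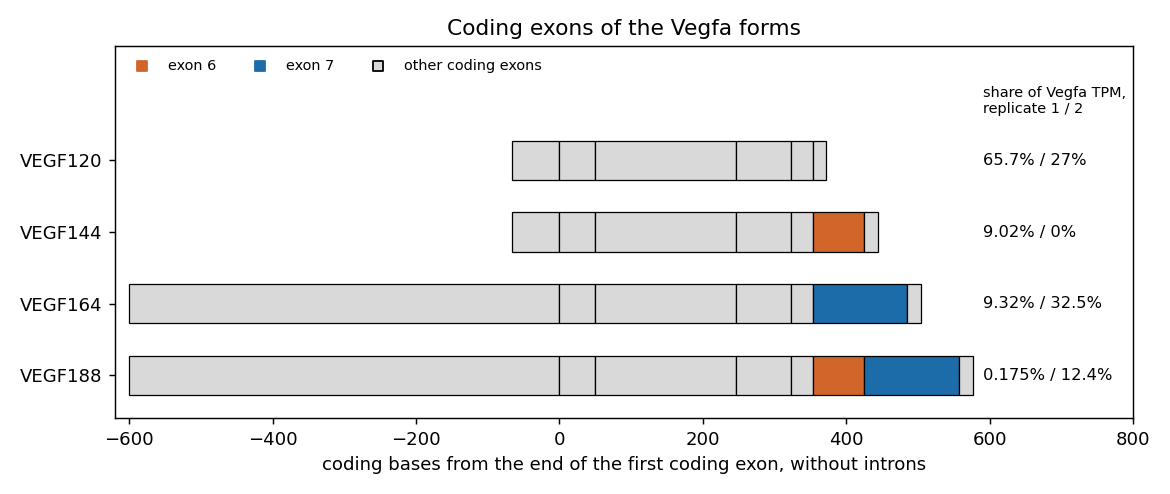
Coding exons of 4 Vegfa forms to scale in bases, aligned at the end of the first coding exon, with exon 6 in orange and exon 7 in blue; right, each form's share of Vegfa TPM in replicates 1 and 2. The forms without exon 7 (VEGF120 and VEGF144) have the larger share in replicate 1, and those with it (VEGF164 and VEGF188) in replicate 2. VEGF120 is drawn as Vegfa-201 (146 coding residues), while its share also holds Vegfa-211 (324 coding residues).

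For Flt1 the full-length receptor exceeded the soluble one in both libraries. Full-length Flt1 (Flt1-202, 1333 residues) was at 23.6 and 20.9 TPM, or 56.4% and 77.0% of Flt1 TPM. Soluble Flt1 (Flt1-203, 688 residues), which lacks the membrane span and kinase, was at 18.2 and 6.24 TPM, or 43.6% and 23.0%. The difference in Flt1 between libraries therefore lay mostly in the soluble form. Posterior means of 16.9 TPM (15.9 to 17.8) and 5.91 TPM (5.41 to 6.40) for that form had deposited intervals that did not overlap. Soluble Flt1 was 0.189 of the level of Kdr in replicate 1 and 0.122 in replicate 2. The forms differ in GC content too: the 4066 bases particular to the soluble transcript are 41.9% GC and the 4669 particular to the full-length one are 49.4%, and the part of this in the shares was not tested.

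Nrp2 and Vegfb also differed in form between libraries. Nrp2b, by the single transcript Nrp2-205, held 58.1% of Nrp2 TPM in replicate 1 and 27.9% in replicate 2, and Nrp2a held 41.9% and 72.1%. In TPM, Nrp2a was 5.71 and 6.49 while Nrp2b was 7.91 and 2.51, so the lower total of Nrp2 in replicate 2 lay in Nrp2b. The bases that Nrp2-202, the main Nrp2a transcript, does not share with Nrp2-205 are 47.0% GC. Those that Nrp2-205 does not share with Nrp2-202 are 45.7%, and the part of GC content in these shares was not tested. Vegfb167, the heparin-binding form, took all 63 counts of Vegfb in replicate 1 and 53.1% of its TPM in replicate 2. Vegfb186, the freely diffusing form, was listed at 0 and at 10.8 TPM, with a posterior mean in replicate 1 of 0.59 TPM (deposited interval reaching 1.76). Its additional 101 bases (chr19:6985496-6985596, minus strand) are 66.3% GC. At 63 counts for the gene, a low share of Vegfb186 was not detectable in replicate 1.

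**Figure D4:**
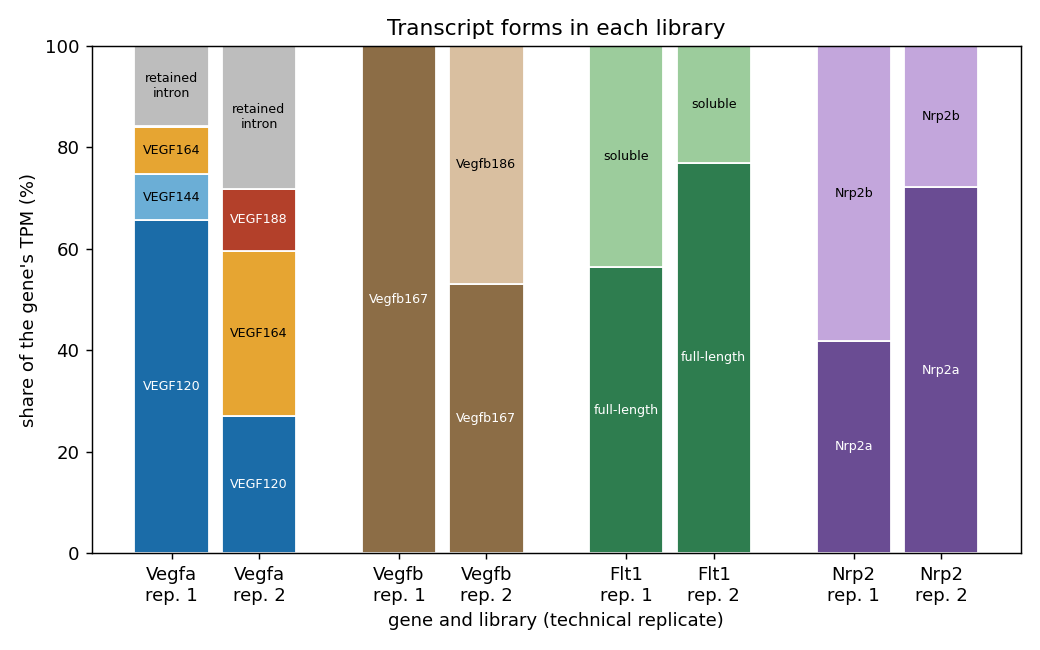
Share of each gene's TPM, in percent, held by its transcript forms in replicates 1 and 2; each bar sums to 100%. VEGF120 goes from 65.7% to 27.0%, soluble Flt1 from 43.6% to 23.0% and Nrp2b from 58.1% to 27.9%, while Vegfb186 appears at 46.9% in replicate 2.

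Kdr, Flt4 and Vegfd each had over 99% of their TPM in 1 coding transcript in both libraries, and Vegfc, Nrp1 and Pgf have 1 transcript in the tables. The transcript of highest TPM was another one in replicate 2 for 2 of the 7 VEGF genes with several transcripts (Vegfa and Nrp2), and for 34.1% of 9696 such genes overall.

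Genes that act with the VEGF ligands and receptors were counted in the same way. Of 61 such pathway genes tested, 25 were higher and 19 lower in replicate 2 by over 2-fold (background 39.3% and 28.2%), with a median log2 ratio of -0.10. Some of those higher, such as Hspg2 at 0.11 and 33.5 TPM, passed the mean of 1 TPM only through replicate 2. All 7 class 3 semaphorins, most of which bind neuropilins, were past 2-fold, with 3 higher and 4 lower. Sema3c, known for its part in patterning the great vessels, was at 492 and 76.6 TPM, above Nrp1 in both libraries. Sema3g, an endothelial semaphorin, was at 12.5 and 60.6 TPM, and Sema3f, which acts through Nrp2, at 1.86 and 60.3 TPM. Of 4 plexins tested, the signalling partners of neuropilins, 2 were higher and 2 within 2-fold. Plxna1 was at 2.29 and 16.3 TPM, Plxnd1, the plexin of endothelium, at 1.09 and 17.3, and Plxna2 at 4.80 and 3.21.

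Genes that cleave or hold the ligands showed 3 higher, 2 lower and 2 within 2-fold of 7 tested. Ccn2, a matrix protein that binds VEGF-A, was at 172 and 104 TPM, and Thbs1, an inhibitor of angiogenesis, at 88.5 and 30.4. Hspg2 (perlecan), a heparan sulfate carrier of vessel walls, had 3 counts in replicate 1 and 1772 in replicate 2, a ratio of 464 with an interval of 158 to 2250. The proteins next to the receptors gave 4 higher, 3 lower and 4 within of 11. The adaptor Nck1 was at 241 and 57.3 TPM, the scaffold Iqgap1 at 69.2 and 53.9, and the adaptor Grb2 at 56.8 and 41.3. For Grb2 the directions disagree, since its scaled counts were 1.70-fold higher in replicate 2. Gipc1, which binds the tail shown above for Nrp2a, was outside the naming rule and chosen after its values were seen, at 1.68 and 42.5 TPM.

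Phosphatases and ubiquitin ligases acting on the receptors gave 2 higher, 1 lower and 3 within of 6. Ptprb (VE-PTP), the endothelial phosphatase that restrains Kdr and Tek, was at 98.0 and 47.2 TPM, 1.02 and 0.921 times the level of Kdr. Ptpn11 was at 17.3 and 28.7 TPM and Ptpn6, a phosphatase of blood cells, at 1.99 and 39.4. Of 19 downstream genes, 7 were higher, 8 lower and 4 within. The kinase Mapk3 was at 11.3 and 240 TPM, and the calcineurin subunit Ppp3ca was at 202 and 46.2. Of 7 genes known to be induced by VEGF in endothelium, 4 were higher, 1 lower and 2 within 2-fold. Esm1, a marker of VEGF-stimulated endothelium, was at 59.6 and 16.3 TPM, the transcription factors Nr4a1 at 7.33 and 44.4 and Sox17 at 22.3 and 17.9.

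**Figure D5:**
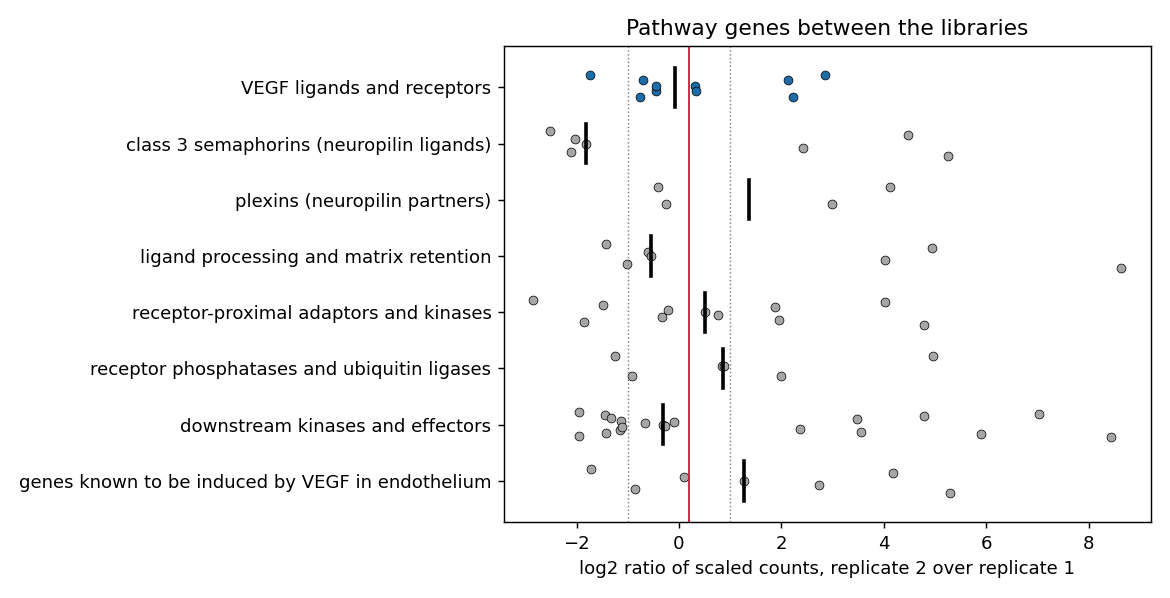
Log2 ratio of scaled counts, replicate 2 over replicate 1, for the 10 VEGF genes (blue) and 61 genes of 7 pathway lists (grey); points are genes, offset vertically for legibility, black bars are list medians, dotted lines mark 2-fold and the red line is the median of all genes tested, 0.19. The class 3 semaphorins lie to both sides with none within 2-fold, and 6 of the 10 VEGF genes lie within. Of all genes tested, 39.3% were higher and 28.2% lower by over 2-fold.

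Markers of the cells that carry these receptors differed between libraries in both directions, and each count below stands against 39.3% of all genes higher and 28.2% lower by over 2-fold. Of 9 endothelial markers, 5 were higher, 2 lower and 2 within 2-fold, and they summed to 610 and 2132 TPM. The sum of 6 markers of alveolar capillary aerocytes was 718 and 428 TPM, with 2 higher and 3 lower, and that of 6 general capillary markers 3057 and 1375, with 2 higher and 2 lower. The 7 lymphatic markers summed to 454 and 384 TPM, with 2 higher and 3 lower, while Flt4 was 4.37-fold higher in replicate 2. Markers within a list went apart, as the following genes show, which were chosen after their values were seen. In the endothelial list Cldn5, a junction protein, was at 0.43 and 607 TPM, while the receptor Tek was at 171 and 75.0 and the sialomucin Emcn at 141 and 63.6. In the general capillary list Hpgd, at 1577 and 390 TPM, and Calcrl, at 1410 and 242, made most of the sum in replicate 1. Gpihbp1 of that list was at 6.31 and 375 TPM and Plvap at 10.1 and 325. In the lymphatic list the transcription factor Prox1 was at 1.69 and 0.40 TPM and the hyaluronan receptor Lyve1 at 297 and 102, while the chemokine Ccl21a was at 1.21 and 165.

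Markers of other cell types differed between the libraries as well. The 5 smooth muscle and pericyte markers were all higher, summing to 82.5 and 715 TPM, as were the 4 cardiac muscle markers, at 102 and 889. Of 3 club cell markers 2 were higher and 1 within, summing to 22642 and 180243 TPM. Of 4 macrophage markers 2 were higher and 2 within 2-fold, although their sum was 1790 and 1009 TPM, most of it Chil3 at 1766 and 941. No gene of these lists was at 0 in either library, and their part in the values of the VEGF genes was not tested.

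The genes whose levels lay nearest to those of the main VEGF genes were found by the smallest maximum difference in log2 TPM over both libraries. Hilpda was nearest to Vegfa, at 223 and 263 TPM, followed by Dynlrb1 and Eif4a1. Ryk was nearest to Kdr, at 94.9 and 52.8 TPM, followed by Epb41l2 and Ak3. Irf9 was nearest to Flt1, at 42.6 and 27.1 TPM, followed by Dync1li2 and Col13a1. Over only 2 libraries of 1 sample such likeness describes levels and nothing further.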

How the data were processed

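Whole lung polyA RNA of 1 mouse was measured in 2 libraries. Per the labels, files use mm10, and per the deposited file descriptions, annotation M4; aligner and quantifier: not given in the sources used here. The expected counts deposited by the authors estimate, per the file headers, how many reads each gene or transcript drew. TPM and FPKM were computed by the authors, per the file headers, as was the percent of its gene held by each transcript. The signal columns deposited by the authors are bounds of a credibility interval that belongs to the posterior mean TPM.

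Expected counts were rounded and scaled by TMM in edgeR 4.0.16 (R 4.3.3), and the log2 ratio of replicate 2 over 1 used a prior of 0.5 counts. Fold intervals are exact Clopper-Pearson intervals at 95%, and they treat each read as its own molecule, which reads lacking molecular identifiers need not be. Genes whose TPM averaged at least 1 were tested, and a gene counts as different past 2-fold, since 1 library on each side allows no p-value. A gene below 1 TPM in 1 library could pass through the other alone, and the background shares hold such genes too. The steps were tested on simulated counts in which a small set of genes was changed and no GC trend was present. These libraries differ in both respects, so that test does not show that the scaling holds for them. GC content came from GENCODE M21 transcripts (GRCm38), with a lowess span of 0.3. Of 35 member transcripts 3 differ in length from the deposited table, Vegfa-211, Nrp1-201 and Vegfc-201. Vegfa and Flt1 forms were classed by the exons of M21. Reads shared by overlapping transcripts were divided by the authors' estimate. Alternatives were DESeq2 1.42.0 size factors, total counts, TPM ratios, posterior means, a prior of 2, minimum counts of 10, GC trends and each library alone.

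Named genes were all 10 members, their transcripts with at least 10% in a library, the 3 genes of highest mean TPM in each pathway list, and the 3 nearest genes; a gene that met this rule is withheld and not reported here. The members, lists and tests were chosen with earlier results of these data known.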

Additional observations from a re-analysis of the deposited data

How the results depend on the processing

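Of 171 recomputed values, 40 were single libraries, which with 2 libraries lie within 1 SD of the mean by construction. Of the other 131, 90 stayed the same by the rule for their kind. Log2 ratios had to lie within the counting interval, and levels and shares of TPM within 1 SD of the mean. Gene counts and background shares had to lie within a set ratio of the main value. Among the 131, 8 log2 ratios changed sign, all 8 on subtraction of a GC trend. The counts of 3 VEGF genes higher and 1 lower held under DESeq2 size factors, total counts, TPM ratios, posterior mean counts, a prior of 2 and factors from genes with at least 10 counts. With the trend on the mean GC of annotated transcripts subtracted, 1 was higher (Vegfd) and 3 lower (Vegfa, Vegfb and Vegfc), and the log2 ratios of Vegfb, Pgf and Flt4 became -2.66, -0.23 and -0.99, and that of Vegfa -2.58. With GC weighted by TPM, an alternative chosen after the data were seen, 1 was higher and 4 lower, with Vegfb at -4.39, Flt4 at -1.61, Vegfa at -1.09 and Vegfc at 0.33. Nrp1 was within 2-fold under the first trend, at -0.78, and at -2.13 under the second. The median log2 ratio of all genes was 0.19 by TMM, 0.45 by total counts and 0.01 by TPM, so ratios are relative to that shift. Genes over 2-fold higher went from 5553 of 14139 to 3176 of 14067 (22.6%) and 2490 of 14097 (17.7%) under these trends, and genes lower from 3990 to 2884 (20.5%) and 2308 (16.4%). Single libraries gave ligand sums of 262 to 321 TPM and receptor sums of 149 to 356. No paired analysis was possible because there is 1 group. Depth limits Pgf and Vegfb most, with 11 and 63 counts in replicate 1.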
